A study of Homo sapiens with 66 samples.

Results

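Non-homologous end joining is the main route by which human cells rejoin a broken DNA helix, and 9 of its core genes were followed here by symbol among the 57992 gene identifiers counted: PRKDC, XRCC5, XRCC6, DCLRE1C, XRCC4, LIG4, NHEJ1, POLL and POLM. RNA came from 11 established cell lines of acute myeloid leukemia (AML), here in order from the lowest to the highest IC50: OCI-AML2, MOLM-13, NB-4, HL-60, OCI-AML3, THP-1, MV-4-11, NOMO-1, MONO-MAC-6, KASUMI-1 and F-36P, which the labels write without hyphens. The IC50 is the concentration of etoposide estimated to halve viability, from a curve fitted to the study's assay. For F-36P it lay above the highest concentration assayed, so that value was extrapolated. Each cell line was left in medium alone (untreated) or received etoposide for 24 hours at its own IC50. Every cell line and condition had 3 libraries, which makes 66 in all. Each cell line stands for 1 leukemia, the dose differed from line to line, and cells of 3 wells were pooled for a library. Per the study, serum share and supplements also differed, with granulocyte-macrophage colony stimulating factor for F-36P. Culture conditions and cell line cannot be told apart. The study's methods speak of biological replicates in general, while the labels do not say whether these came from separate cultures, so p-values measure the spread between these libraries.

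Etoposide traps topoisomerase II on DNA after the enzyme has cut both strands, so that breaks persist. In end joining, the Ku ring made of XRCC6 (Ku70) and XRCC5 (Ku80) slides onto each broken end and recruits the kinase DNA-PKcs, the product of PRKDC. The nuclease Artemis, encoded by DCLRE1C, trims ends, the polymerases lambda (POLL) and mu (POLM) fill gaps, and DNA ligase IV (LIG4) with its scaffold XRCC4 and the bridging factor XLF (NHEJ1) seals them. Ku and DNA-PKcs are among the abundant nuclear proteins of proliferating human cells, whereas the ligase complex is scarcer. The data address how these genes were expressed before treatment, whether that level followed the IC50, and how each gene changed after etoposide.

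Between 17997404 and 24101670 reads fell on genes in a library, with a median of 20241014, and mitochondrial genes took 3.49% to 7.44% of them. The mitochondrial share, which can reflect RNA quality, moved with treatment: its median was 5.07% untreated and 5.98% after etoposide. The ranges of 3 libraries did not overlap, with the higher share after etoposide, in MOLM-13, OCI-AML3, THP-1, MV-4-11, MONO-MAC-6, KASUMI-1 and F-36P. In MOLM-13 the share lay between 5.17% and 5.68% untreated and between 7.07% and 7.44% after etoposide, while in HL-60, NB-4 and NOMO-1 the ranges overlapped. Its part in the changes below was not tested. Levels are given as CPM, read counts scaled to a common library size with TMM factors. The factors of basal levels came from the 33 untreated libraries, and those of a comparison with etoposide from the 6 libraries of that cell line, so both scales differ slightly. Of the AML markers, PTPRC, CD33, SPI1, LYZ and CSF3R reached at least 1 CPM in all 11 untreated cell lines and MPO in 10, with 0.977 CPM in F-36P. F-36P held the highest levels of the erythroid genes GATA1 (253 CPM) and KLF1 (231 CPM). The lymphoid genes CD3E and MS4A1 stayed at or below 3.30 CPM. CDKN1A, the cell cycle inhibitor p21 that marks a damage response, rose in all 10 cell lines compared below, by 1.86 to 5.46 on the log2 scale, and MDM2 rose in 5 and fell in 1. The study discarded the etoposide libraries of OCI-AML2 after quality control, so that cell line is given apart from the other 10.

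The genes lie on different chromosomes of GRCh38, apart from XRCC5 with NHEJ1 and DCLRE1C with POLL. XRCC5 spans chr2:216107464-216206303 on the plus strand and NHEJ1 chr2:219069355-219160869 on the minus strand, while DCLRE1C spans chr10:14897359-14954432 and POLL chr10:101578882-101588270, both on the minus strand. XRCC6 spans chr22:41621163-41664048 on the plus strand and XRCC4 spans chr5:83077498-83353787 on the plus strand. LIG4 spans chr13:108207439-108218368 and POLM spans chr7:44072062-44082530, both on the minus strand. RefSeq promoter windows (GRCh38.p14), the 250 bases before the start, were matched for 7 of the 9 members: XRCC6, XRCC4, LIG4, NHEJ1, DCLRE1C, POLL and POLM. Shown here are the stretches of 4 windows that lie outside every gencode exon, for XRCC6 and XRCC4, which both fell on average after etoposide, for LIG4, the partner of XRCC4 whose mean change did not pass the test, and for POLM, whose level had the strongest correlation with the IC50. Capitals mark the letters of a GC box, a CCAAT box or an NRF1 site on either strand.
XRCC6, chr22:41621045-41621162, plus strand: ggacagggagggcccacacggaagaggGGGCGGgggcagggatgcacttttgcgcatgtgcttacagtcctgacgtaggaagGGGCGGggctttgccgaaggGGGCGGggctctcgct
XRCC4, chr5:83077454-83077497, plus strand: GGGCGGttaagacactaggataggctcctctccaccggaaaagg
LIG4, chr13:108218369-108218391, minus strand: tccgaGCATGCGCagaagccgct
POLM, chr7:44082531-44082780, minus strand: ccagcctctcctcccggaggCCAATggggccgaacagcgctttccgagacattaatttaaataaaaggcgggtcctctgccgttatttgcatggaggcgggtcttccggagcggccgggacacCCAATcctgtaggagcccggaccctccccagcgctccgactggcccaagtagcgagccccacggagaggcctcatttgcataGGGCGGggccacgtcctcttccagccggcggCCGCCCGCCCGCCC

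The letters of the GC box, GGGCGG, stood in 5 of the 7 windows searched, against 42.6% of the 35116 windows in the table. The CCAAT box stood in 3 of 7, against 32.0%, and the NRF1 site GCATGCGC in LIG4 alone, against 2.63%. Neither the E-box CACGTG (6.34% of all windows) nor any of the E2F elements TTTCCCGC, TTTGGCGC, TTTGCCGC and TTTCGCGC (2.79%) was found in the 7 windows. GC boxes that overlap each other, as at the end of the POLM window, were each counted.

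NHEJ1 could not be tested in these counts. It held 0 to 9 reads per library and 94 reads in all 66, below the filter on low counts in every cell line. All 897 of its coding bases lie under exons of a read-through gene on the same strand (ENSG00000280537), which itself held 0 to 15 reads, and the counter used by the authors leaves out reads that 2 genes share. Over all its exons the shared part is 19.48%, so reads from the rest could still be counted, and few were. Because the coding part could not be counted, the level and change of NHEJ1 are not reported. The other 8 members share no exon on the same strand with another gene and were tested in all 10 cell lines, which gives 80 gene and cell line pairs.

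In untreated cells the Ku genes and PRKDC were far more abundant than the remaining members, also after division by transcript length. Per kilobase of the canonical transcript, the median level over the 11 cell lines was 309 CPM for XRCC6, 172 CPM for XRCC5 and 86.8 CPM for PRKDC. It was 13.6 CPM per kilobase for XRCC4, 11.7 for POLM, 11.2 for POLL, 6.66 for LIG4 and 3.66 for DCLRE1C. The end-binding genes thus stood above the processing and ligation genes in each of these medians. With the length of all exons of a gene in place of the canonical transcript, the order of XRCC6, XRCC5 and PRKDC was the same, at 202, 106 and 40.2 CPM per kilobase.

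All 8 members differed between the 11 untreated cell lines by edgeR's quasi-likelihood F-test, with an adjusted p of at most 1.13e-09, but so did 99.4% of the 18130 genes tested. The size of the difference was modest for PRKDC, POLL, DCLRE1C, XRCC6 and LIG4, whose highest cell line mean was 1.97, 2.07, 2.24, 2.63 and 2.66 times the lowest. XRCC5 spanned 3.65-fold, POLM 6.11-fold and XRCC4 6.54-fold. Over the 13667 genes whose mean reached 1 CPM, the middle 50% spanned 2.61-fold to 53.5-fold, with a median of 4.30-fold, so 6 of the 8 members varied less than the median gene.

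PRKDC, the DNA-PKcs gene at chr8:47773111-47960178 on the minus strand, was highest in MOLM-13, OCI-AML3 and MV-4-11, at 1979 ± 122.7, 1900 ± 114 and 1859 ± 97.7 CPM (SD, n = 3), whose libraries overlapped. OCI-AML2 followed with 1576 ± 84.3 CPM and MONO-MAC-6 with 1350 ± 45.7 CPM, and neither overlapped its neighbours in the order. The remaining 6 cell lines had means between 1007 and 1168 CPM and overlapped from neighbour to neighbour, with 1 KASUMI-1 library, at 1348 CPM, inside the range of MONO-MAC-6.

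XRCC5, the Ku80 gene, was lowest in KASUMI-1, where the 3 libraries held 226, 229 and 196 CPM. That was below every library of the other 10 cell lines, the next of which, F-36P, held 310, 433 and 624 CPM. MV-4-11 was highest at 792 ± 15.5 CPM and apart from OCI-AML2 below it, and between them 9 cell lines formed a run of overlapping neighbours.

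XRCC6, the Ku70 gene, did not follow its partner. F-36P held the highest level, with 886, 917 and 919 CPM, above all other libraries, while its XRCC5 was the second lowest. MONO-MAC-6 held the lowest level of XRCC6, with 363, 337 and 337 CPM, below all other libraries, while its XRCC5 stood in the middle of the order. Over the 11 cell lines the Pearson r between the log2 levels of the 2 Ku genes was -0.13. These points share the libraries and the normalization of each cell line.

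XRCC4, the scaffold of the ligase, was highest in THP-1 with 49.5, 63.0 and 43.6 CPM, followed by MV-4-11 with 34.1 ± 0.853 CPM, and both stood apart from their neighbours. It was lowest in KASUMI-1 with 9.32, 9.11 and 5.42 CPM, again below all other cell lines. LIG4, the ligase itself, ranged from 16.3 ± 2.73 CPM in NOMO-1 to 43.4 ± 4.56 CPM in MONO-MAC-6, which stood apart from MV-4-11 at 35.5 ± 0.562 CPM. The scaffold and the ligase were thus highest in different cell lines.

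DCLRE1C, the Artemis gene, formed a high set of MOLM-13, MV-4-11, THP-1 and OCI-AML2 between 26.3 and 28.0 CPM, and was lowest in NB-4 at 12.5 ± 0.302 CPM. POLL was highest in KASUMI-1 at 44.8 ± 4.85 CPM and lowest in MV-4-11 at 21.6 ± 1.32 CPM, and 9 of its 10 neighbouring pairs overlapped. POLM showed the opposite kind of pattern, with 1 cell line far below the rest. F-36P held 9.80, 7.80 and 8.22 CPM of POLM, against a lowest mean elsewhere of 23.7 ± 2.11 CPM in NB-4 and a highest of 52.6 ± 2.60 CPM in HL-60.

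**Figure D1:**
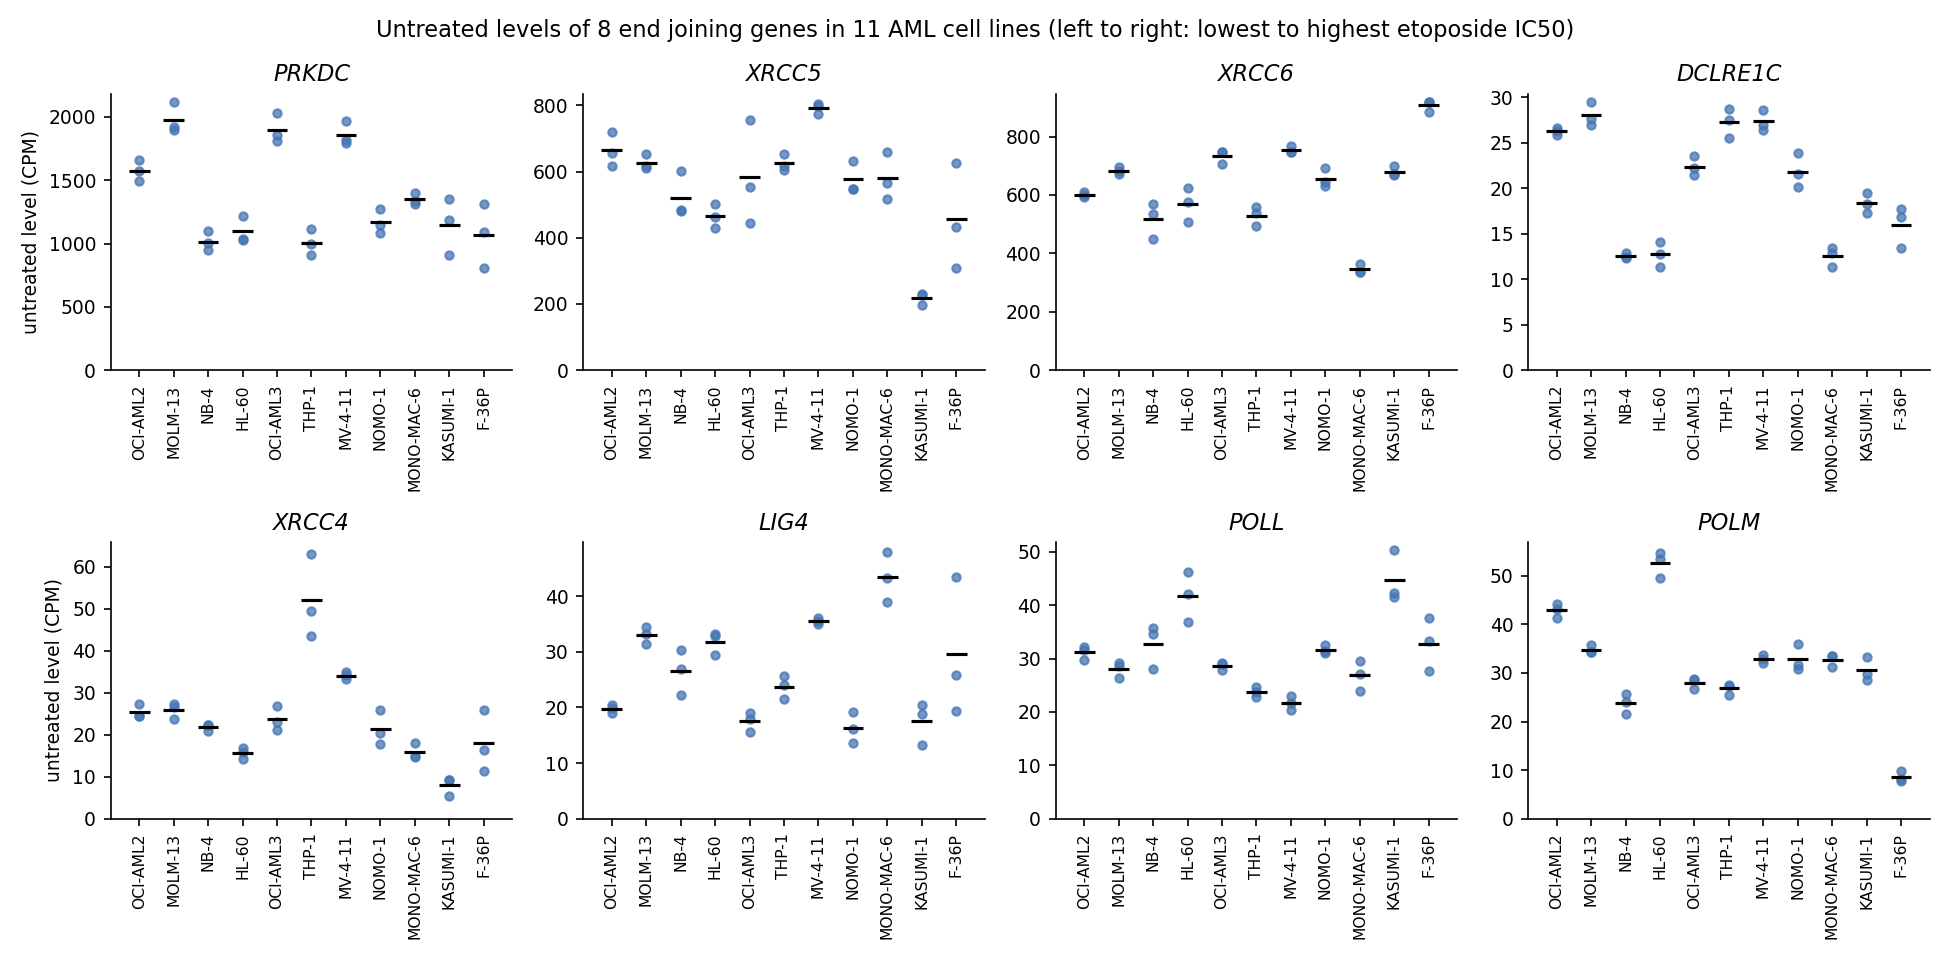
Untreated level (CPM, TMM over 33 untreated libraries) of 8 end joining genes in 11 AML cell lines, ordered from the lowest to the highest etoposide IC50; points are the 3 libraries and bars their mean. KASUMI-1 was lowest for XRCC5 and XRCC4, F-36P was highest for XRCC6 and lowest for POLM, and THP-1 was highest for XRCC4.

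Among the 28 pairs of members, the levels over the 11 cell lines were closest for XRCC5 and XRCC4, with a Pearson r of 0.83, and POLL ran against both, with r of -0.83 against XRCC5 and -0.82 against XRCC4. KASUMI-1, lowest in XRCC5 and XRCC4 and highest in POLL, lies at an end of each of these relations. XRCC4 and LIG4, whose products form 1 complex, had an r of 0.125, and PRKDC and DCLRE1C had an r of 0.57. The single gene whose log2 level was most like each member over the 11 cell lines, among 13667 genes, was SNU13 for XRCC6 (r = 0.98), HAT1 for XRCC4 (0.96), PRPF18 for DCLRE1C (0.95), OSBPL1A for POLM (0.95), ABR for XRCC5 (0.95), MIR34AHG for PRKDC (0.94), ABHD13 for LIG4 (0.94) and KANSL3 for POLL (0.93). ABHD13 starts next to LIG4 on the opposite strand. Each of these is the highest of many correlations over 11 points and is given as a description.

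The IC50 spread widely between the cell lines, and F-36P was the least sensitive, far above the next, KASUMI-1. The value of F-36P was extrapolated beyond the concentrations assayed, so its distance from the others is uncertain. The log2 level of POLM had a Pearson r of -0.82 with log2(1 + IC50) over the 11 cell lines (two-sided permutation test, p = 0.0297, and p = 0.308 after Benjamini-Hochberg adjustment over 13667 genes). Spearman's rho was -0.48 (permutation p = 0.137, adjusted p = 0.849). Without F-36P, which held both the lowest POLM level and the highest IC50, r was -0.18 (permutation p = 0.616), and leaving out KASUMI-1 too, the other cell line far from the median IC50, gave an r of -0.14 (permutation p = 0.705). The relation of POLM to the IC50 therefore rested on F-36P, which is also the cell line with the erythroid markers.

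No other member passed an unadjusted p of 0.05 over the 11 cell lines. XRCC5 had an r of -0.45 (permutation p = 0.123, adjusted p = 0.449), XRCC4 -0.42 (permutation p = 0.193, adjusted p = 0.535), PRKDC -0.36 (permutation p = 0.293, adjusted p = 0.627) and DCLRE1C -0.32 (permutation p = 0.387, adjusted p = 0.699). XRCC6 had an r of 0.36 (permutation p = 0.232, adjusted p = 0.574), POLL 0.21 (permutation p = 0.512, adjusted p = 0.781) and LIG4 0.07 (permutation p = 0.863, adjusted p = 0.953). Of all 8 members, 5 were negative and 3 positive, and none passed after adjustment. Without POLM, given above, Spearman's rho ran from -0.47 for XRCC4 to 0.25 for XRCC6, with permutation p between 0.146 and 0.902.

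Leaving out F-36P changed more than POLM. XRCC4 then had an r of -0.65 (permutation p = 0.0476, adjusted p = 0.737) and XRCC5 an r of -0.65 (permutation p = 0.0596), and XRCC6 turned from positive to -0.24 (permutation p = 0.483). KASUMI-1, lowest in both XRCC4 and XRCC5, was then the least sensitive cell line, and without it as well the r of XRCC4 was -0.28 and that of XRCC5 was 0.03. Over all 13667 genes, 7.38% had a positive and 6.95% a negative r at an unadjusted p below 0.05, and 0 passed after adjustment, so 1 negative call among 8 members is near the background.

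After etoposide the end-binding genes and XRCC4 fell in most cell lines, while LIG4, DCLRE1C, POLL and POLM mostly did not pass the test. A gene was called changed in a cell line at an adjusted p below 0.05 by edgeR's quasi-likelihood test of 3 against 3 libraries, with Benjamini-Hochberg adjustment over all genes tested in that cell line. Of the 80 pairs, 34 were lower (42.5%), 6 were higher (7.5%) and 40 did not pass. The background over all 143149 gene and cell line pairs was 24.4% lower and 27.7% higher. The median log2 fold change of the 80 pairs was -0.22, against 0.01 for all pairs. In RNA from a whole culture, fewer cells of a kind and less RNA per cell cannot be told apart.

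The study's own threshold adds a fold change above 2. By it 3 of the 80 pairs were repressed, PRKDC in KASUMI-1 and F-36P and XRCC6 in NB-4, against 3.96% of all pairs. None was induced more than 2-fold, against 11.1% of all pairs, and DESeq2 also called 0, as no member rose by a log2 fold change above 0.66 in any cell line. Without untreated replicate 1 of F-36P, the library of that group with the lowest PRKDC, XRCC5 and XRCC4, 5 pairs were repressed more than 2-fold, the added ones being XRCC5 (-1.08) and XRCC4 (-1.11) in F-36P.

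With library size alone in place of TMM, the counts were 27 lower and 10 higher. PRKDC in F-36P then missed the 2-fold threshold (-0.96), which left 2 pairs repressed. That scaling moved the log2 fold changes by more than 0.1 in 6 of the 10 cell lines, with shifts between -0.01 in MOLM-13 and 0.25 in F-36P. PRKDC was then negative in 8 cell lines in place of 10, turning slightly positive in HL-60 and THP-1, and XRCC4 in 9, turning in KASUMI-1, while XRCC5 and XRCC6 were negative in all 10 under every scaling run.

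**Figure D2:**
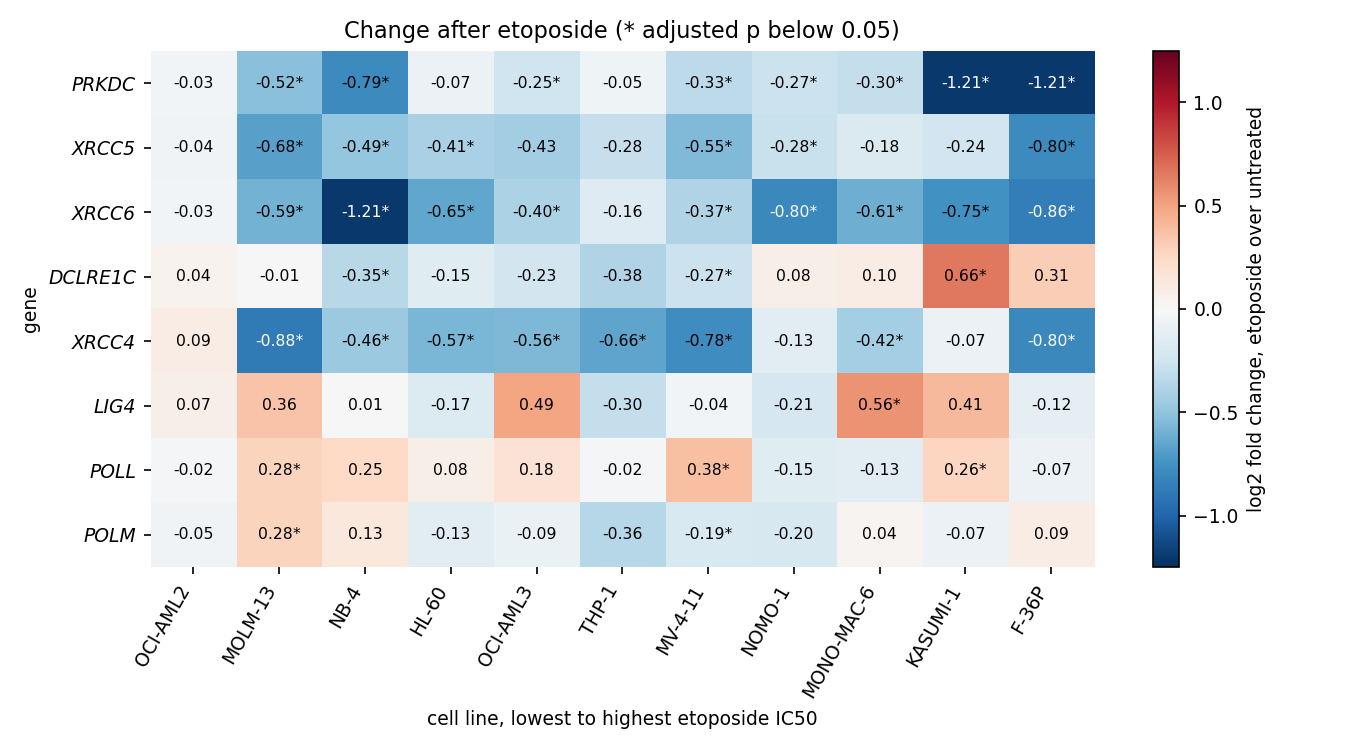
Log2 fold change (etoposide over untreated, edgeR) of 8 end joining genes in 11 cell lines ordered from the lowest to the highest IC50; blue is lower and red is higher after etoposide, and a star marks an adjusted p below 0.05. The rows of PRKDC, XRCC5, XRCC6 and XRCC4 are blue in the 10 cell lines beside OCI-AML2, whose column has no star.

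Averaged over the 10 cell lines, each giving 1 value, 4 members were lower. XRCC6 had a mean log2 fold change of -0.64 ± 0.10 (SE, n = 10, limma adjusted p = 0.000409), XRCC4 of -0.53 ± 0.09 (limma adjusted p = 0.000597), PRKDC of -0.50 ± 0.12 (limma adjusted p = 0.00504) and XRCC5 of -0.43 ± 0.07 (limma adjusted p = 0.000614). These correspond to 0.641, 0.690, 0.707 and 0.74 times the untreated level. Each was negative in 10 of 10 cell lines, and an exact sign-flip permutation test gave p = 0.00195 for each, the smallest that 10 cell lines allow, and 0.00991 after adjustment. That is not particular to these members. Of the genes in the lists below, LIG3, PARP1, RAD50, SHLD2, PAXIP1, DYNLL1, CCNB1 and PLK1 were also negative in all 10 and had the same p. APLF and CDKN1A, positive in all 10, had it too, and the share of all genes at that p is not given here. POLL (0.10 ± 0.07), LIG4 (0.10 ± 0.10), DCLRE1C (-0.02 ± 0.10) and POLM (-0.05 ± 0.07) did not pass, with limma adjusted p of 0.263, 0.440, 0.853 and 0.584. Of all 10588 genes with a value in each cell line, 27.6% were lower and 18.4% higher on average.

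XRCC6 fell in 9 of the 10 cell lines. In NB-4 the untreated libraries held 561, 594 and 475 CPM and the etoposide libraries 248, 239 and 219 CPM, a log2 fold change of -1.21 ± 0.10 (SE, edgeR adjusted p = 6.50e-08). In F-36P the level went from 895, 979 and 1006 CPM to 532, 515 and 536 CPM (-0.86 ± 0.10, edgeR adjusted p = 4.44e-05), and in NOMO-1 from 704, 771 and 723 CPM to 472, 388 and 399 CPM (-0.80 ± 0.09, edgeR adjusted p = 1.83e-05). In each of these the 2 conditions did not overlap, and the same held for MOLM-13, HL-60, OCI-AML3, MV-4-11, MONO-MAC-6 and KASUMI-1, whose log2 fold changes lay between -0.37 and -0.75. The share of all genes whose conditions do not overlap was not counted, so overlap is given here and below as a description only. THP-1 was the exception, with 552, 509 and 571 CPM before and 453, 477 and 527 CPM after (-0.16 ± 0.11, edgeR adjusted p = 0.293). MONO-MAC-6, which started lowest, reached 249, 229 and 230 CPM, close to the level of NB-4 after etoposide, although each cell line was normalized apart.

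XRCC5, the other Ku subunit, fell in 6 of the 10 cell lines and by less than 2-fold in each. The clearest fall was in MV-4-11, from 856, 832 and 852 CPM to 612, 574 and 548 CPM (-0.55 ± 0.05, edgeR adjusted p = 3.57e-09). MOLM-13 went from 592, 587 and 626 CPM to 452, 286 and 386 CPM (-0.68 ± 0.13, edgeR adjusted p = 0.00156). F-36P had the lowest estimate, -0.80 ± 0.25 (edgeR adjusted p = 0.0190), but its conditions overlapped, since untreated replicate 1 held 313 CPM beside 463 and 684 CPM and the etoposide libraries held 319, 303 and 217 CPM. The call in F-36P was lost without etoposide replicate 3 (-0.65, edgeR adjusted p = 0.0732) and that in NOMO-1 without untreated replicate 1 (-0.21, edgeR adjusted p = 0.0833). OCI-AML3, THP-1, MONO-MAC-6 and KASUMI-1 did not pass, with log2 fold changes between -0.18 and -0.43. MONO-MAC-6 passed without untreated replicate 2 (-0.26, edgeR adjusted p = 0.0142) and KASUMI-1 without untreated replicate 3 (-0.31, edgeR adjusted p = 0.0334) or etoposide replicate 3 (-0.32, edgeR adjusted p = 0.0472).

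PRKDC fell in 8 of the 10 cell lines, and most in the 2 least sensitive ones. KASUMI-1 went from 1349, 1187 and 897 CPM to 587, 372 and 530 CPM (-1.21 ± 0.18, edgeR adjusted p = 0.000341) and F-36P from 816, 1167 and 1438 CPM to 535, 476 and 467 CPM (-1.21 ± 0.18, edgeR adjusted p = 0.000253). The conditions did not overlap in either, although the untreated libraries of both cell lines spread more than those of any other. NB-4 followed with 1148, 1050 and 1005 CPM before and 690, 601 and 556 CPM after (-0.79 ± 0.09, edgeR adjusted p = 3.71e-06). MOLM-13 (-0.52 ± 0.06), MV-4-11 (-0.33 ± 0.05) and MONO-MAC-6 (-0.30 ± 0.04) fell less, with edgeR adjusted p of 7.48e-05, 4.33e-06 and 2.45e-05. In 1 fit of 60 libraries MV-4-11 and MONO-MAC-6 did not pass (edgeR adjusted p of 0.0765 and 0.0533). The small falls in NOMO-1 (-0.27, edgeR adjusted p = 0.0357) and OCI-AML3 (-0.25, edgeR adjusted p = 0.0311) were each lost without 1 of 2 untreated libraries. Without untreated replicate 1 or 2, the adjusted p was 0.135 or 0.0734 in NOMO-1 and 0.125 or 0.0501 in OCI-AML3. HL-60 (-0.07 ± 0.10) and THP-1 (-0.05 ± 0.13) did not pass, with overlapping conditions.

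XRCC4 fell in 8 of the 10 cell lines. MV-4-11 went from 37.0, 36.7 and 35.5 CPM to 24.2, 20.7 and 18.8 CPM (-0.78 ± 0.09, edgeR adjusted p = 8.82e-08) and MOLM-13 from 22.9, 25.5 and 26.1 CPM to 17.0, 11.04 and 12.4 CPM (-0.88 ± 0.14, edgeR adjusted p = 0.000508). THP-1, which held the most XRCC4, went from 50.9, 64.9 and 44.6 CPM to 35.8, 28.0 and 37.6 CPM (-0.66 ± 0.16, edgeR adjusted p = 0.00347), the only member to pass in that cell line. Without untreated replicate 2 of THP-1, the highest of its libraries, the change was -0.47 and did not pass (edgeR adjusted p = 0.0561). HL-60, NB-4 and MONO-MAC-6 fell by 0.57, 0.46 and 0.42 on the log2 scale, with no overlap between conditions. In 1 fit of 60 libraries NB-4 and MONO-MAC-6 did not pass (edgeR adjusted p of 0.0834 and 0.0937). With library size alone NB-4 did not pass either (edgeR adjusted p = 0.0535).

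The calls of XRCC4 in OCI-AML3 (-0.56, edgeR adjusted p = 0.0389) and F-36P (-0.80, edgeR adjusted p = 0.0383) were lost when single libraries were left out. In OCI-AML3 the adjusted p was 0.0874 without untreated replicate 1 and 0.0918 without untreated replicate 3. In F-36P, whose conditions overlapped, it was 0.0529 without untreated replicate 2, 0.0952 without etoposide replicate 2 and 0.130 without etoposide replicate 3. NOMO-1 (-0.13 ± 0.19) and KASUMI-1 (-0.07 ± 0.20) did not pass. KASUMI-1 had started at the lowest level of the series, with 456 reads over its 3 untreated libraries and 497 over its 3 etoposide libraries.

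**Figure D3:**
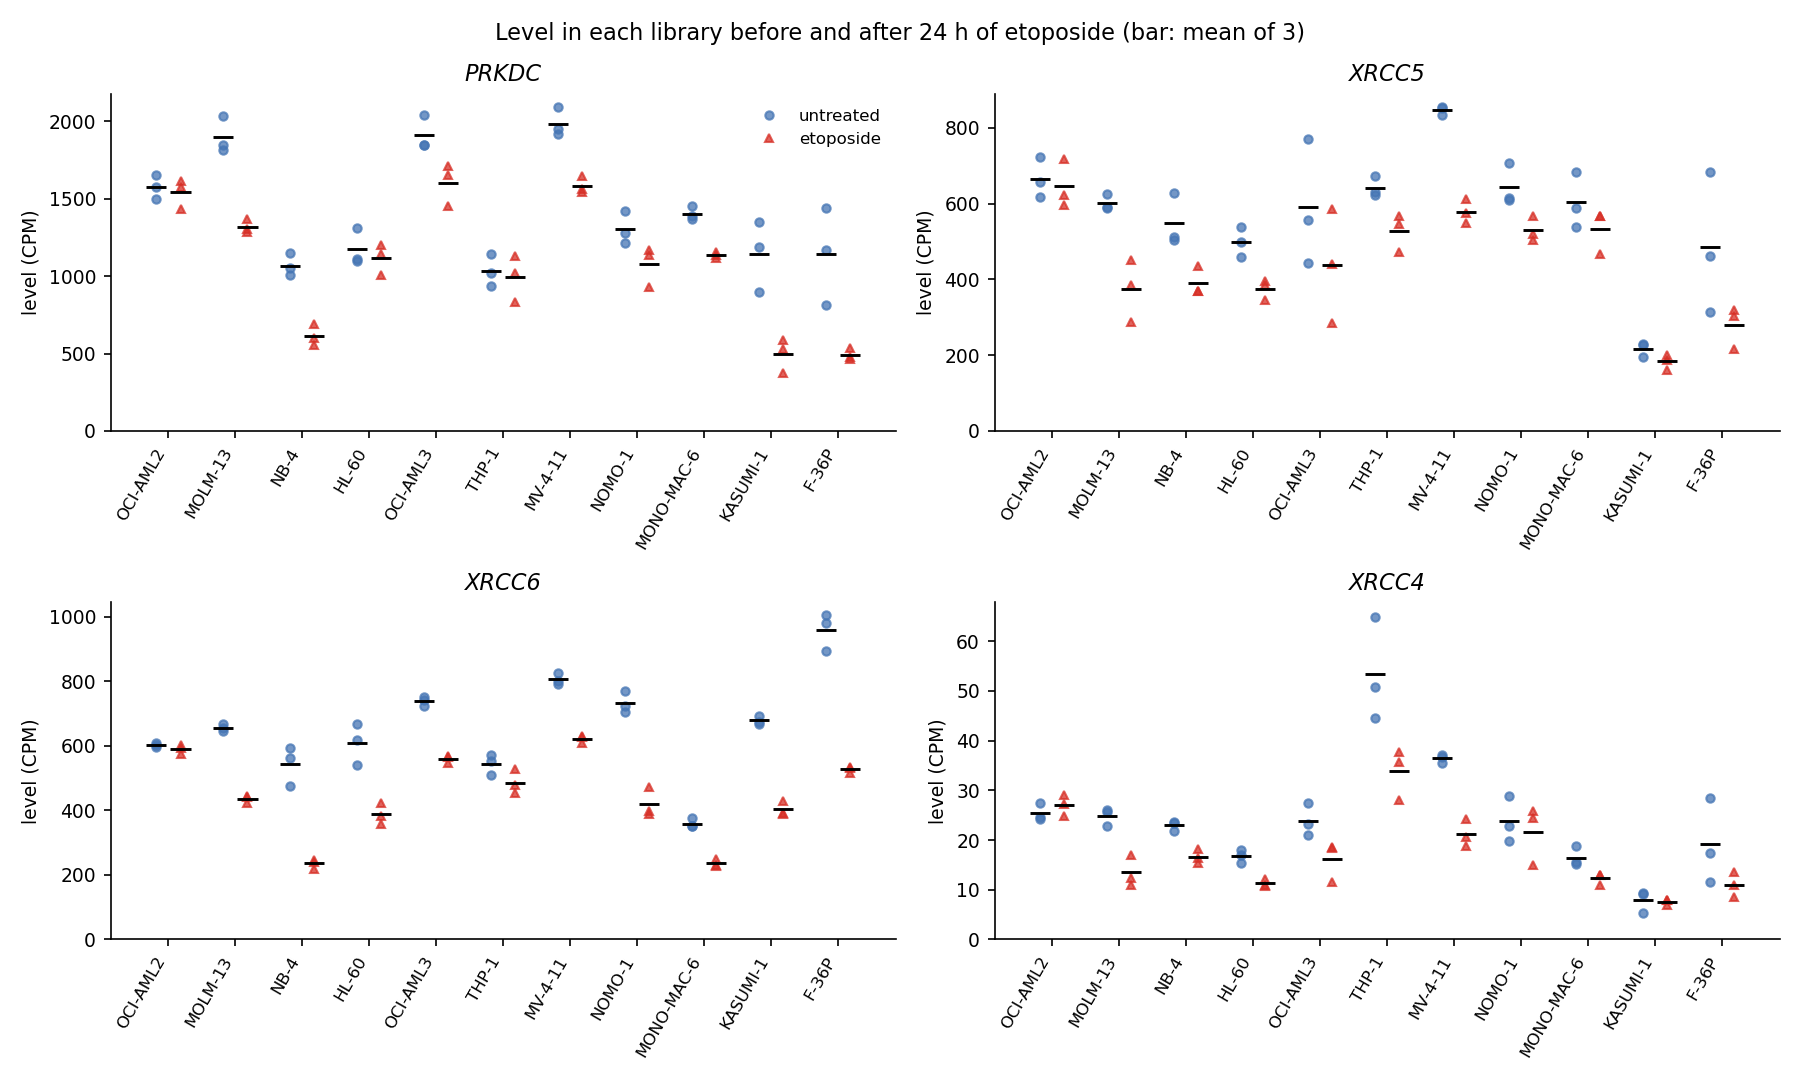
Level (CPM, TMM within each cell line) of PRKDC, XRCC5, XRCC6 and XRCC4 in every library, untreated (circles) and after 24 hours of etoposide (triangles), with the mean of 3 as a bar; cell lines run from the lowest to the highest IC50. The conditions separate for XRCC6 in 9 cell lines, overlap for all 4 genes in OCI-AML2, and the untreated F-36P libraries spread widely for PRKDC, XRCC5 and XRCC4. The share of all genes whose conditions separate was not counted.

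Within F-36P, 4 members moved together between replicates of 1 condition, which was not particular to them. Untreated replicate 3 held the highest and replicate 1 the lowest level of PRKDC, XRCC5, XRCC4 and LIG4, the last with 19.6, 27.6 and 47.7 CPM. POLM, at 9.90, 8.34 and 9.0 CPM, and XRCC6, at 895, 979 and 1006 CPM, spread less. Among genes of the lists below, RIF1 (42.8, 63.2 and 117 CPM) and RAD50 (17.7, 28.6 and 48.4 CPM) rose in the same order. LIG3, at 74.9, 67.8 and 64.2 CPM, ran the other way. The 3 libraries held 18616941, 19024422 and 20105328 reads on genes and mitochondrial shares of 5.90%, 5.39% and 5.26%. The part of depth or RNA quality in this spread was not tested.

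LIG4 passed in 1 of the 10 cell lines. In MONO-MAC-6 it went from 49.9, 40.5 and 45.0 CPM to 73.2, 57.9 and 68.6 CPM (0.56 ± 0.09, edgeR adjusted p = 0.000265), a rise in the cell line that already held the most LIG4. It passed with a fall in 0 cell lines by edgeR and by DESeq2, and with a fall at an unadjusted p below 0.05 also in 0. In OCI-AML3 the estimate was 0.49 ± 0.22 (edgeR adjusted p = 0.114), with 28.9 and 29.9 CPM in 2 etoposide libraries and 15.7 CPM in replicate 3, against 18.03, 15.5 and 19.4 CPM untreated. Without that replicate it was 0.74 (edgeR adjusted p = 0.000172). In MOLM-13 it was 0.36 ± 0.16 (edgeR adjusted p = 0.0763) and 0.52 without etoposide replicate 2 (edgeR adjusted p = 0.00492), and in KASUMI-1 it was 0.41 ± 0.16 (edgeR adjusted p = 0.0565). KASUMI-1 passed without untreated replicate 1 (0.53, edgeR adjusted p = 0.0261) or etoposide replicate 2 (0.50, edgeR adjusted p = 0.0185). NOMO-1, at -0.21, passed as lower without etoposide replicate 3 (-0.43, edgeR adjusted p = 0.0495).

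DCLRE1C moved in both directions. In KASUMI-1 it rose from 19.4, 18.3 and 17.1 CPM to 32.9, 24.1 and 29.7 CPM (0.66 ± 0.12, edgeR adjusted p = 0.00131), the largest rise of any member in any cell line, while PRKDC, which activates Artemis, fell there. F-36P, at 0.31 ± 0.16, pointed the same way without passing (edgeR adjusted p = 0.129), although its conditions did not overlap. It passed with library size alone (0.56, edgeR adjusted p = 0.00855). DCLRE1C fell in MV-4-11, from 30.4, 28.4 and 28.8 CPM to 24.9, 24.5 and 23.3 CPM (-0.27 ± 0.08, edgeR adjusted p = 0.00480), and in NB-4 (-0.35 ± 0.13, edgeR adjusted p = 0.0253). The fall in NB-4 was lost without etoposide replicate 3 (-0.26, edgeR adjusted p = 0.151), and with library size alone it was -0.15 in NB-4 and -0.14 in MV-4-11 and passed in neither. THP-1, at -0.38, passed without etoposide replicate 1 (-0.45, edgeR adjusted p = 0.0432).

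The gap-filling polymerases passed the test in few cell lines. POLL rose in MV-4-11 from 21.6, 23.2 and 24.6 CPM to 27.4, 31.6 and 31.3 CPM (0.38 ± 0.08, edgeR adjusted p = 0.000474), in MOLM-13 (0.28 ± 0.09, edgeR adjusted p = 0.0205) and in KASUMI-1 (0.26 ± 0.10, edgeR adjusted p = 0.0415). The last 2 calls were lost when any of 4 libraries was left out. In MOLM-13 the adjusted p was between 0.0501 and 0.108 without untreated replicate 1 or 2 or etoposide replicate 2 or 3, and in KASUMI-1 between 0.0846 and 0.203 without the same 4 replicates. In NB-4 POLL was 0.25 with an edgeR adjusted p of 0.0806, and 0.25 with an edgeR adjusted p of 0.00774 when the replicate number was a block. The labels do not say that replicate numbers pair the libraries, so neither value is preferred. NB-4 also passed without etoposide replicate 1 (0.35, edgeR adjusted p = 0.0183), and MONO-MAC-6, at -0.13, without untreated replicate 1 (-0.21, edgeR adjusted p = 0.0347).

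POLM rose in MOLM-13 from 32.9, 34.4 and 32.9 CPM to 37.7, 43.4 and 40.6 CPM (0.28 ± 0.08, edgeR adjusted p = 0.0119) and fell in MV-4-11 from 34.0, 36.3 and 35.1 CPM to 29.4, 32.3 and 30.7 CPM (-0.19 ± 0.07, edgeR adjusted p = 0.0288). The fall in MV-4-11 was lost without untreated replicate 2 or 3 (edgeR adjusted p of 0.106 and 0.0614) and was -0.06 with library size alone. THP-1, at -0.36, passed without etoposide replicate 2 (-0.46, edgeR adjusted p = 0.00193) and NOMO-1, at -0.20, without etoposide replicate 1 (-0.28, edgeR adjusted p = 0.0295). F-36P, with the least POLM, held 9.90, 8.34 and 9.0 CPM before and 8.15, 10.9 and 9.98 CPM after etoposide.

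By cell line, MV-4-11 had the most calls, with 6 of the 8 members lower and 1 higher, where 30.4% and 33.5% of all genes were lower and higher. NB-4 had 5 lower and 0 higher against 28.7% and 31%, MOLM-13 had 4 lower and 2 higher against 28.1% and 28.1%, and F-36P had 4 lower and 0 higher against 25% and 35%. HL-60 had 3 lower and 0 higher against 15% and 17.5%, OCI-AML3 had 3 and 0 against 17.7% and 22.4%, and NOMO-1 had 3 and 0 against 23.9% and 28.8%. MONO-MAC-6 had 3 lower and 1 higher against 30.5% and 31.8%, and KASUMI-1 had 2 lower and 2 higher against 28.6% and 31.5%. THP-1 had 1 lower and 0 higher, near its background of 16% and 16.1%. In each of the 10 cell lines the members lower were at least as many as those higher.

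The response of most members differed between cell lines, about as often as for all genes. The interaction of cell line and treatment, tested over 60 libraries by edgeR's quasi-likelihood F-test, passed for 6 of the 8 members, against 74.5% of the 19974 genes tested. The adjusted p was 2.46e-10 for XRCC6, 2.09e-08 for PRKDC, 1.58e-06 for DCLRE1C, 0.00176 for POLM, 0.00213 for POLL and 0.0283 for LIG4. For XRCC4 and XRCC5 it was 0.186 and 0.406, so a difference between cell lines in their fall was not detectable here. The spread of the log2 fold change over the 10 cell lines was 0.43 (SD) for PRKDC and 0.20 for XRCC5.

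OCI-AML2, whose etoposide libraries the study set aside, had 0 of 8 members changed by edgeR, 0 by DESeq2 and 0 at an unadjusted p below 0.05. Only 3 of its 13604 genes passed (0.0221%), among them CDKN1A, which rose by 0.73 on the log2 scale. XRCC6 held 609, 595 and 602 CPM before and 602, 575 and 592 CPM after, and all 8 log2 fold changes lay between -0.05 and 0.09.

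Because some members work as partners, their levels per kilobase were also set against each other. The log2 ratio of XRCC4 over LIG4 was 1.00 ± 0.81 in untreated cells (SD over 10 cell lines) and became lower in 9 of the 10. Its mean change over all 10 was -0.63 ± 0.39. In MOLM-13 it went from 0.96 ± 0.12 to -0.27 ± 0.06 (SD, n = 3) and in MONO-MAC-6 from -0.14 ± 0.10 to -1.13 ± 0.05, while in NOMO-1 it was 1.70 ± 0.21 before and 1.78 ± 0.12 after. The mean ratio went from above to below equal levels in MOLM-13, HL-60, KASUMI-1 and F-36P. In HL-60 (-0.10 ± 0.15) and F-36P (-0.11 ± 0.15) it ended within 1 SD of equal levels. The point of equal levels also depends on the transcript length used.

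The log2 ratio of XRCC5 over XRCC6 ranged from -2.32 in KASUMI-1 to 0.07 in MONO-MAC-6 before treatment. It moved in no common direction after etoposide, being lower in 4 of the 10 cell lines and higher by 0.72 in NB-4, where XRCC6 fell more than XRCC5. PRKDC over DCLRE1C fell by 1.86 in KASUMI-1 and by 1.49 in F-36P, from 4.77 ± 0.21 to 2.91 ± 0.12 and from 4.87 ± 0.20 to 3.38 ± 0.08, and changed by -0.51 to 0.33 in the other 8. POLL over POLM stood at 1.94 ± 0.17 in F-36P and between -0.59 and 0.56 in the other cell lines of the 10. These ratios do not depend on the normalization, and no test was run on them.

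**Figure D4:**
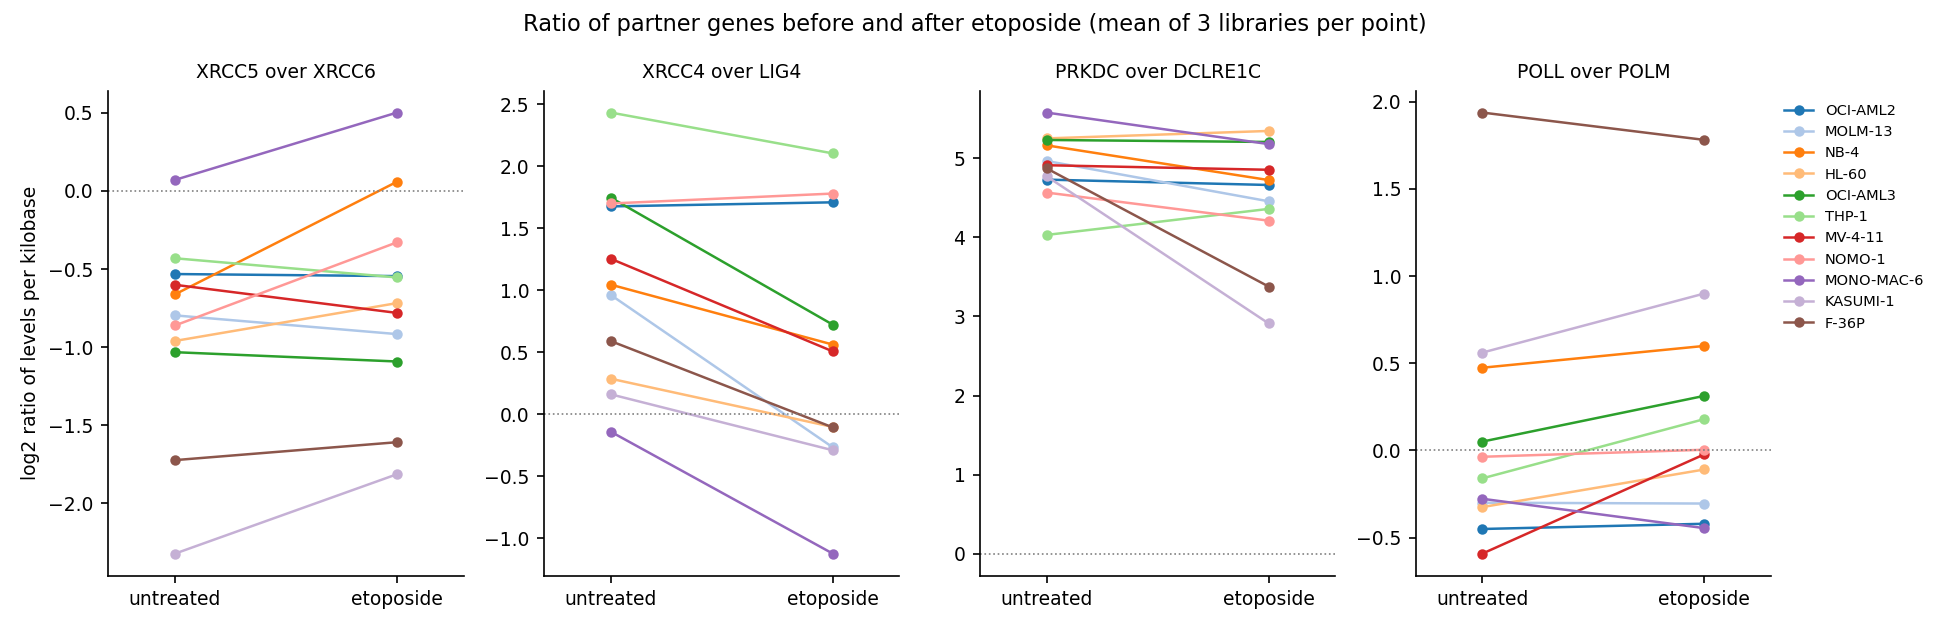
Log2 ratio of the levels per kilobase of 4 partner pairs before and after etoposide, with 1 line per cell line and the mean of 3 libraries at each end; the dotted line marks equal levels. XRCC4 over LIG4 became lower in 9 of the 10 cell lines beside OCI-AML2, and PRKDC over DCLRE1C fell most in KASUMI-1 and F-36P.

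The rest of the pathway was followed in lists chosen with earlier results of these data known. Among the accessory end joining genes, DNTT, which adds bases without a template in lymphoid cells, was below the filter in all 10 cell lines. APLF, a scaffold that binds Ku and XRCC4, rose in all 10 cell lines, in 8 of them more than 2-fold, by 0.84 to 1.77 on the log2 scale. APLF stayed a low gene, for example at 1.56 CPM before and 5.25 CPM after etoposide in MONO-MAC-6. APLF is named because it passed 2-fold in at least 3 cell lines, and it does not stand for the other accessory genes. WRN, a helicase, fell in 6 and CYREN, an inhibitor of end joining, in 4 of the 10 cell lines, each by less than 2-fold, and both were chosen after their values were seen.

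Of 9 genes of alternative end joining and end resection (POLQ, LIG3, LIG1, PARP1, XRCC1, RBBP8, MRE11, RAD50 and NBN), 32 of 90 pairs were lower and 25 higher (35.6% and 27.8%), with a median of -0.10. Of 10 genes around 53BP1 and shieldin, which protect ends from resection (TP53BP1, RIF1, MAD2L2, SHLD1, SHLD2, SHLD3, RNF8, RNF168, PAXIP1 and DYNLL1), 42 of 100 pairs were lower and 14 higher (42.0% and 14.0%), with a median of -0.15. The share of lower pairs in that list was close to the 42.5% of the core genes, and no difference between lists was tested.

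Genes of proliferation were also followed, and moved in both directions. Of MKI67, TOP2A, CCNB1, PLK1, MCM2, MCM5, PCNA and E2F1, 40 of 80 pairs were lower and 19 higher (50% and 23.8%), with a median of -0.21, against -0.22 for the core genes. PLK1, a mitotic kinase, fell in 9 of the 10 cell lines, in 4 of them more than 2-fold, and in KASUMI-1, where PRKDC fell more than 2-fold, it was -0.20 and did not pass (edgeR adjusted p = 0.0812). In the same cell line MKI67 rose by 1.13, TOP2A by 1.12, E2F1 by 0.54 and PCNA by 0.45 on the log2 scale (edgeR adjusted p of 0.00117, 0.000404, 0.00129 and 0.000359). These were picked from the list after their values were seen, and the KASUMI-1 values of CCNB1, MCM2 and MCM5 are not given here. In F-36P, where PRKDC also fell more than 2-fold, PLK1 and CCNB1 were repressed more than 2-fold, and none of these genes was induced more than 2-fold. E2F1 was higher in 6 and PCNA in 5 of the 10 cell lines. CCNB1 was lower in 8, MKI67 and MCM2 in 5 each, and TOP2A and MCM5 in 4 each. The part of proliferation in the fall of the core genes was not tested.

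**Figure D5:**
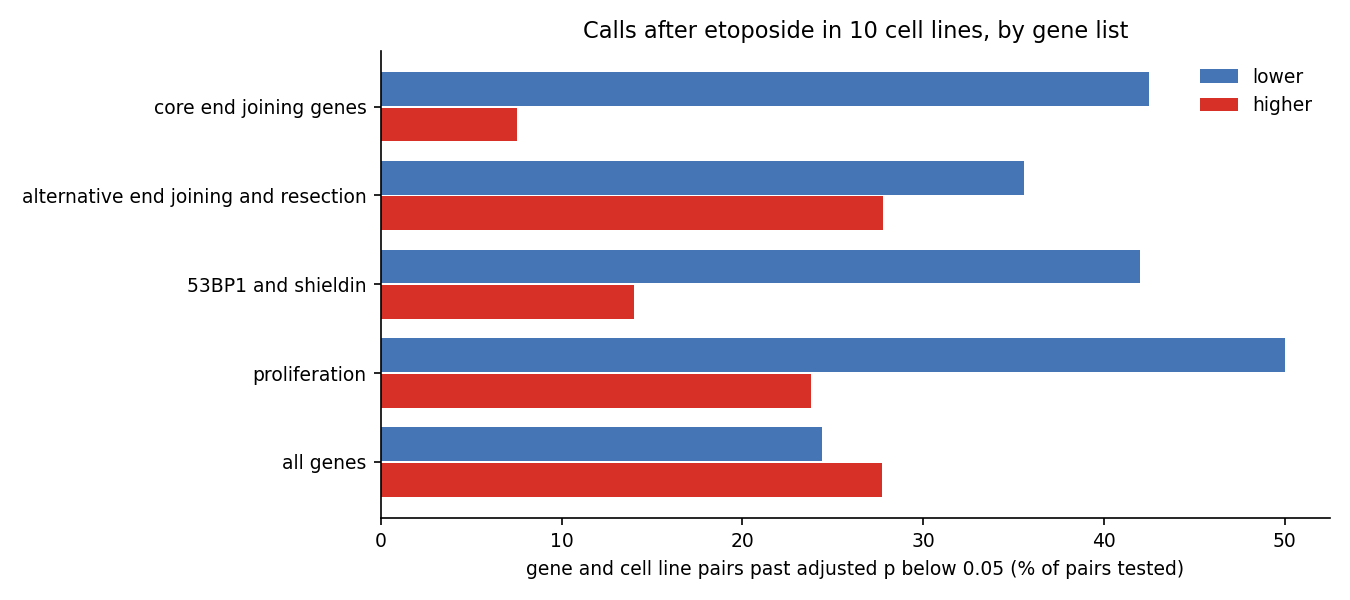
Share of gene and cell line pairs (10 cell lines) called lower or higher after etoposide (edgeR, adjusted p below 0.05) for the core end joining genes, 3 other gene lists and all genes tested. The core genes had 42.5% lower and 7.5% higher, against 24.4% and 27.7% of all pairs.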

How the data were processed

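RNA sequencing counts of 66 libraries (11 AML cell lines, untreated or etoposide, 3 each) were used. Per the labels and the study's methods, the authors made libraries with a stranded mRNA kit, mapped reads with STAR 2.5.3a to GRCh38.p7 with gencode 25, checked them with FastQC 0.11.5 and used edgeR 3.20.1. The deposited values are raw read counts per gene, 1 column per library, without normalization. Reads appear to have been counted by strand: of 716 genes that an opposite-strand exon of gencode 44 covers entirely, 470 had reads. The exons of gencode 25 were not compared, so this check cannot settle it. Counted by strand, the antisense neighbours, DPCD for POLL and SUV39H2 for DCLRE1C, would share no reads with them. They overlap 4.48% of the exons of POLL and 1.04% of those of DCLRE1C. Reads of genes that overlap on 1 strand are left out by that counter. Of 58037 identifiers, 45 copies on chromosome Y with 0 reads were left out, and 56948 of the remaining 57992 were named by gencode 44. No 2 replicates agreed within sampling noise (lowest chi-square over its degrees of freedom 2.05, from genes of 100 reads or more).

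CPM, log2 fold changes and p-values were computed here. Each cell line was fitted alone with edgeR 4.0.16 in R 4.3.3 (filterByExpr with a minimum count of 10 and total of 15, TMM, quasi-likelihood test, no replicate block, Benjamini-Hochberg). The mean over cell lines was tested with limma 3.58.1 and an exact sign-flip permutation of 1024 flips, and the IC50, taken from the study, with 100000 permutations on log2(1 + CPM) and genes of at least 1 CPM. Lengths for levels per kilobase are those of gencode 44. DESeq2 1.42.0, other filters, other scalings, 1 fit of all libraries and each replicate left out were alternatives. Steps were tested on simulated data. Python 3.11.15, numpy 2.4.6, pandas 2.3.3, scipy 1.17.1 and matplotlib 3.10.9 did the rest. Intervals and limits of reads cover counting error only.

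The replicate numbers were checked for pairing by the correlation of same-numbered libraries' deviations from their group means. Every pair was above 0.1 in NB-4 alone, where the lowest was 0.15 and the highest 0.27. MOLM-13, at 0.09 to 0.23, and OCI-AML2, at 0.08 to 0.16, came close. The labels state no pairing, and these weak correlations cannot settle it.

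The 9 members and all lists were chosen with earlier results of these data known. All members are named, as are list genes changed more than 2-fold in at least 3 cell lines, the gene most like each member and, for a single library or scaling, what was seen in the values. The study's own comparison tables, networks and inhibitor experiments were not analysed here. Some marker and accessory genes, and the counts of the accessory list, are not reported here.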

Additional observations from a re-analysis of the deposited data

Results flagged for a closer look

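The etoposide response differed between the 10 cell lines, by the interaction of cell line and treatment over 60 libraries (edgeR quasi-likelihood F-test with Benjamini-Hochberg adjustment), for 6 of the 8 members tested. The same test passed for 74.5% of all 19974 genes, so this count is at the background. The adjusted p was 2.46e-10 for XRCC6, which fell in 9 cell lines and by -0.16 without passing in THP-1. It was 2.09e-08 for PRKDC, which fell by more than 2-fold in KASUMI-1 and F-36P and was at -0.07 in HL-60 and -0.05 in THP-1 without passing. DCLRE1C (adjusted p = 1.58e-06) rose in KASUMI-1 and fell in NB-4 and MV-4-11. POLM (adjusted p = 0.00176) rose in MOLM-13 and fell in MV-4-11, POLL (adjusted p = 0.00213) rose in 3 cell lines, and LIG4 (adjusted p = 0.0283) rose in MONO-MAC-6. The doses differed between the cell lines, so the cell line and its dose cannot be told apart. Leaving out 1 replicate number ended the call for LIG4 (without untreated replicate 2, etoposide replicate 1 or etoposide replicate 2, adjusted p of 0.172, 0.108 and 0.0725), POLL (without untreated replicate 2, 0.0776) and POLM (without untreated replicate 3, 0.0536), and made XRCC4 pass (without untreated replicate 1 or etoposide replicate 1, 0.0201 and 0.0140). No member's change in 1 cell line stood apart from the other 9 by Dixon's test at the 95% level, which flags about 1 in 20 groups by chance. A test of a single value cannot judge 2 that lie together, as PRKDC did at -1.21 in both KASUMI-1 and F-36P.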

How the results depend on the processing

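The 34 pairs lower after etoposide numbered 27 to 35 under RLE size factors, library size alone, 2 other filters, DESeq2, the replicate block and 1 fit of 60 libraries, and 30 to 36 without single replicates. The 6 pairs higher numbered 10 with library size alone and 4 to 7 without single replicates. The 3 pairs repressed more than 2-fold numbered 3 to 5 without single replicates, with 5 when untreated replicate 1 was left out, and 2 with library size alone, which lost PRKDC in F-36P (-0.96), and 0 were induced more than 2-fold under any of these. The counts of OCI-AML2 (0) and of the basal level (8) were the same under every alternative run, the mean over cell lines passed for 4 members under each but library size alone, which added POLL, and the interaction passed for 4 to 7 members without single replicates. POLL then had a mean log2 fold change of 0.21 (limma adjusted p = 0.0379) with library size alone. With the IC50, the 1 member at an unadjusted p below 0.05 became 0 with Spearman's rho, 0 without F-36P and KASUMI-1 and 0 with Spearman's rho without F-36P. Without F-36P it was again 1, XRCC4 in place of POLM. Leaving out replicates for the mean, interaction, basal and IC50 results, the 2 farthest cell lines and rho without F-36P were chosen after seeing the data. No result changed direction while passing the test.

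With the replicate number as a block, 31 pairs were lower and 8 higher. Only NB-4 met the check for pairing, and there the block moved 1 call, that of POLL. Among the 10 cell lines that did not meet it, OCI-AML2 included, the block ended the calls of PRKDC and XRCC5 in NOMO-1, PRKDC and XRCC4 in OCI-AML3 and XRCC5 and XRCC4 in F-36P. It made those of XRCC5 and POLL in MONO-MAC-6, LIG4 in MOLM-13 and DCLRE1C in THP-1. The interaction then passed for 5 members, without LIG4 (adjusted p = 0.0930). Counting depth was lowest for XRCC4 in KASUMI-1, with 456 reads over its 3 untreated libraries, and for POLM in F-36P, with 482.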
